A study of Mus musculus with 5 samples.

Results

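Transcripts of 71 mitochondrial ribosomal protein genes were measured over 5 days of osteoclast formation from mouse bone marrow macrophages. Osteoclasts are large cells with many nuclei that break down bone. The members are the genes whose symbol in the platform annotation is Mrpl (43 genes, large subunit) or Mrps (28 genes, small subunit) followed by a number. They were taken from 22180 genes with at least 1 array row that names a single gene, and the row with the highest mean was used where a gene had several. RefSeq holds 78 protein-coding Mrpl and Mrps genes, and the other 7 (Mrpl30, Mrpl33, Mrpl41, Mrpl43, Mrpl44, Mrpl53 and Mrps6) shared their row with another gene and are not members here.

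RNA came from cells at days 0, 1, 2, 3 and 5 of culture with M-CSF at 20 ng/ml, on which macrophages depend for survival, and RANKL at 30 ng/ml, the signal for osteoclasts to form. Each later day was set against day 0, the macrophages before RANKL. All cultures came from wild-type mice aged 10 weeks and were grown on plastic. Each day had 1 array made from 5 ng of total RNA, so every difference below is between single arrays and has no replicate check and no p-value. Cells left without RANKL over the same days were not analysed here, so time in culture and osteoclast formation cannot be told apart. The values are log2 intensities on which all arrays were brought to one distribution. They show a transcript's place relative to the rest of the array, and fewer cells of a type and less RNA per cell cannot be told apart.

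The mitochondrial ribosome, or mitoribosome, is built inside the organelle from nuclear-encoded proteins and from RNA encoded by mitochondrial DNA. It makes only the few core subunits of the respiratory chain and ATP synthase that mitochondrial DNA encodes, which then join nuclear-encoded subunits made on cytosolic ribosomes. Osteoclasts are rich in mitochondria, and the coactivator PGC-1beta (Ppargc1b) is known to drive mitochondrial gene expression as they form.

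The cell types of the labels were checked against marker genes. All 10 osteoclast markers were at least 2-fold higher at day 5, with log2 differences of 5.37 to 6.91 from day 0, and 8 of 8 macrophage markers were measured on the arrays. Array medians lay between 4.88 and 4.92 and upper quartiles between 7.05 and 7.17. A gene is called measured when its mean level reached 4.89, the median of the means of all rows. That left 12049 genes, among them 71 of 71 members, and 64 members also passed a stricter level of 7.11.

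The members stood higher on every later day than at day 0, and most of the difference was already present at day 1. Their median log2 difference from day 0 was 0.47 at day 1, 0.48 at day 2, 0.36 at day 3 and 0.33 at day 5, while the median over all measured genes was 0 on each day. The 4 comparisons share the day 0 array. At day 1, 70 of the 71 members lay above day 0 by any amount, as did 49.1% of all measured genes and 54.9% of those above the stricter level. The single member below day 0 compares with 43.2% lower among all measured genes. At day 5 this held for 58 members, with 12 lower and 1 equal, against 42.8% of all measured genes higher and 49.2% lower. On all 4 later days 56 members (78.9%) lay above day 0, compared with 23.8% of all measured genes. This is the same count as that of genes whose single lowest array was day 0. The day 0 array was the single highest for 0 members, against 24.1% of all measured genes.

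The differences were small in size. At least 2-fold higher at day 1 were 4 members, Mrpl45, Mrpl52, Mrps35 and Mrps22, where 2.91% of all measured genes were, and 0 members were 2-fold lower, where 4.17% were. At least 1.5-fold higher at day 1 were 23 of 71, against 9.75% of all measured genes, and 0 members were 1.5-fold lower, against 9.79%. At day 2 the count at 2-fold was 5 higher and 0 lower (5.18% and 5.25% of all measured genes), with Mrps5 and Mrpl12 in place of Mrpl45. At day 3 it was 2 higher and 0 lower (7.29% and 7.5%), and at day 5 it was again 2 higher, Mrps35 and Mrpl52, and 0 lower (6.78% and 6.56%). At 1.5-fold the day 5 count was 17 higher and 0 lower, where 13.3% of all measured genes were higher and 14% lower. The count of members at 2-fold was thus near or below the background on days 2, 3 and 5.

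A yardstick of measurement noise came from genes with 2 rows. Over 442 such measured genes the day 1 difference disagreed between rows with an SD of 0.46, or 0.33 for 1 row, and the day 5 difference with an SD of 0.59, or 0.42 for 1 row. Past 2 SDs of 1 row, which is 0.65, stood 14 members at day 1, all of them higher, against 7.92% of measured genes on the higher side. At day 5 the same limit was 0.84, and 7 members passed it, all higher, against 8.73%. This yardstick leaves out the spread between cultures and any error that rows of the same array share.

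**Figure D1:**
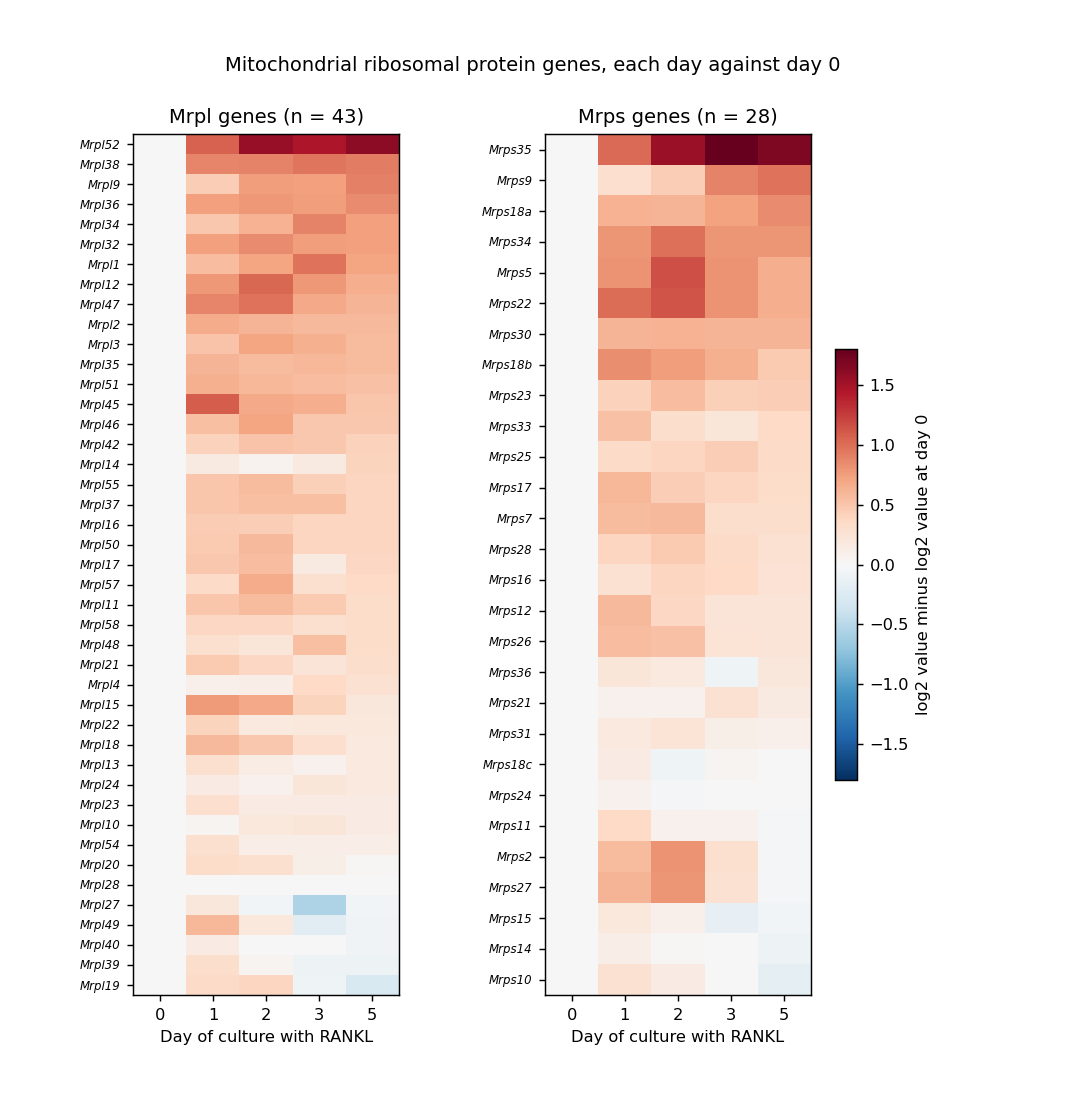
Each row is 1 mitochondrial ribosomal protein gene, ordered by its day 5 difference within the 43 Mrpl genes (left) and the 28 Mrps genes (right), and the columns are the 5 days of culture. Colour gives the log2 value minus the day 0 value of the same gene, so day 0 is blank: the day 1 column is red in nearly every row, and Mrpl52 and Mrps35 are the darkest from day 2 on.

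Between neighbouring days, on the values as deposited, the members' median was largest in the first step and at or just below 0 in the later ones. At day 2 against day 1, the median was 0.00099, with 36 members higher, 34 lower and 1 equal, against 42.8% higher and 47.9% lower among all measured genes. In this step 0 of 71 members passed 1.5-fold either way, where 6.14% of all measured genes were higher and 4.61% lower by as much. At day 3 against day 2 the median was -0.07 and 49 members were lower, 18 higher and 4 equal, against 45.5% lower and 45.5% higher among all measured genes. At day 5 against day 3 it was -0.03 with 43 lower, 19 higher and 9 equal, against 45% lower and 45.8% higher. At day 5 against day 1 the median was -0.11, with 48 members lower, 18 higher and 5 equal, against 46.5% lower and 44% higher among all measured genes. Exact equality comes from the median polish that summarises probes, which often gives a gene the same value on several arrays.

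The array with the highest value was day 1 for 30 members (42.3%), day 2 for 23 (32.4%), day 3 for 11 (15.5%) and day 5 for 6 (8.45%), and 1 was tied. Among all measured genes the shares were 24.3% for day 1, 12.9% for day 2, 18.6% for day 3 and 16.2% for day 5. Relative to their own day 1 difference, 23 members were at or above the day 1 value at day 5, 35 lay between day 0 and day 1, and 13 were at or below day 0. This split was not counted over all measured genes.

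The scaling of the arrays was varied. With arrays centred on their medians, the members' median was 0.48 at day 1 against day 0, 0.03 at day 2 against day 1 and 0.37 at day 5 against day 0. Centring on 11 reference genes, each taken relative to its own mean, was added after the data were seen and gave 0.39, 0.08 and 0.31 for the same comparisons, with 69, 49 and 57 of 71 members higher, against 41.4%, 61.8% and 41.1% of all measured genes. A further form of centring, on the median of the 11 levels, took the level of the mid-ranked gene, which was Pgk1 on all 5 arrays, and so it follows that glycolytic gene alone. It moved all genes alike, with a median over all measured genes of -0.25 at day 1 against day 0, 0.42 at day 2 against day 1 and -0.17 at day 3 against day 2. The members' medians were then 0.21, 0.42 and -0.24, with 57, 71 and 7 of 71 higher, against 26%, 90.3% and 28.8% of all measured genes. At day 5 against day 1 the members' median was -0.08 with array medians, -0.05 with the 11 genes relative to their own means, and 0.15 with the level of Pgk1, where that of all measured genes was 0.26.

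**Figure D2:**
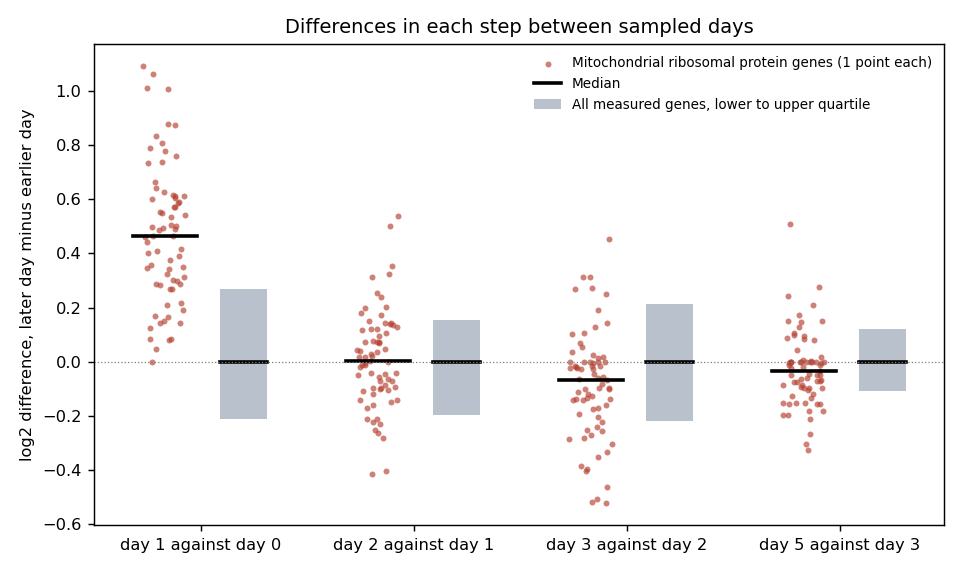
Points are the 71 members in each step between sampled days, on a log2 scale, with the later day minus the earlier day; black lines are medians and grey boxes the lower to upper quartile of all 12049 measured genes. The points of day 1 against day 0 lie almost wholly above 0 (median 0.47), and those of the 3 later steps spread on both sides of it.

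Other groups of transcripts also differed between the first arrays. At day 1 the median over 10 osteoclast markers was 2.66 above day 0. That over 8 macrophage markers was -1.02, with 8 of 8 lower, against 43.2% of all measured genes. The summed linear level of the osteoclast markers was 851, 8110, 31400, 47100 and 49600 on days 0, 1, 2, 3 and 5, and that of the macrophage markers 21800, 12500, 13300, 18200 and 19200. Of 17 cell cycle genes, 15 were higher at day 1 with a median of 0.24, against 49.1% of all measured genes. At day 5, 17 of 17 were at least 2-fold lower with a median of -1.87, against 6.56% of all measured genes.

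Of the stromal markers 2 of 4 were measured, and the summed level of all 4 was 114, 428, 426, 337 and 226. The proteoglycan gene Dcn, with log2 values of 5.20, 8.45, 8.44, 7.99 and 7.13, carried that pattern, with its lowest value at day 0 and its highest at days 1 and 2. Summed neutrophil markers (7 of 7 measured) were at 1550, 1740, 780, 989 and 705. Dendritic cell markers (3 of 5 measured, all 5 summed) were at 417, 753, 461, 569 and 729. No B cell, T cell or erythroid marker with a row was measured (0 of 2, 0 of 3 and 0 of 1). The part of any of these in the members' step at day 1 was not tested.

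Promoter letters were compared with the members' shared timing, since nuclear respiratory factor 1 (NRF1), ETS-family factors such as GABP, and YY1 are known regulators of nuclear genes for mitochondria. RefSeq promoters of build GRCm38.p6, 250 bases before to 50 after the start, were at hand for 62 of the 71 members, 9534 measured genes and 27025 genes in all. Both strands were searched. The NRF1 letters (GCGCA, any base, then GCGC) were in 11 of the 62 members' promoters (17.7%), in 10.5% of those of measured genes and in 4.78% of all promoters. The ETS letters CCGGAAG were in 22 (35.5%), against 18.3% of measured genes and 9.12% of all. The YY1 letters ATGGCGG were in 12 (19.4%), against 8.36% and 4.19%.

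At least 1 of the 3 was in 36 of 62 members' promoters (58.1%), against 32.1% of measured genes and 16% of all promoters, and 0 members held all 3. The letters AAGGTCA of oestrogen-related receptors were in 4 (6.45%, against 3.13% of measured genes) and the E-box CACGTG in 5 (8.06%, against 10.2%). The SP1 letters GGGCGG were in 32 (51.6%, against 63%), and median GC content was 58.2% in members' promoters and 60.7% in those of measured genes. In the promoters of 64 nuclear genes for respiratory chain and ATP synthase subunits the NRF1 letters reached 21.9%, the ETS letters 25% and the YY1 letters 12.5%, and in those of 43 cytosolic ribosomal protein genes 9.3%, 44.2% and 16.3%. Members with and without a motif had medians that lay close together at day 1, 0.44 with and 0.49 without the NRF1 letters, 0.50 and 0.45 for ETS, and 0.54 and 0.46 for YY1. These matches are letters in a window and not sites of binding.

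The stretches of 160 bases that end just before the start of 4 members are printed here. Mrpl52 and Mrpl45 had the largest differences at day 1, Mrpl12 encodes a protein of the ribosomal stalk, and Mrps9 had the largest positive difference at day 3 against day 2. All 4 are on the plus strand of GRCm38.p6 and come from RefSeq, and capitals mark a match to the NRF1, ETS or YY1 letters on either strand.
Mrpl52 (chr14:54426749-54426908): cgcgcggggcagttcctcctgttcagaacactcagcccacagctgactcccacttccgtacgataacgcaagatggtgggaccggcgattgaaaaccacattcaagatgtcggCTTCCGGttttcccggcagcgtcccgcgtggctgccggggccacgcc
Mrpl45 (chr11:97315556-97315715): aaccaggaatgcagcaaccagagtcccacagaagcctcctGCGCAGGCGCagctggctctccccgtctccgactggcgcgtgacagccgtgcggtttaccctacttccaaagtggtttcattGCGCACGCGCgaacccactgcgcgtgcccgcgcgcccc
Mrpl12 (chr11:120484477-120484636): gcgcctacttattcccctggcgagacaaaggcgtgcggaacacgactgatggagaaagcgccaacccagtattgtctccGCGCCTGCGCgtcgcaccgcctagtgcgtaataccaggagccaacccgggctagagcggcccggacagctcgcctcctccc
Mrps9 (chr1:42851073-42851232): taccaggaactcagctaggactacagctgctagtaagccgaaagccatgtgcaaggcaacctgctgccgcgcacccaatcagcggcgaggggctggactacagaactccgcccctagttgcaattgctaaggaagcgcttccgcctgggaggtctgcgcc

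In these windows Mrpl52 held 1 ETS match, Mrpl12 held 1 NRF1 match, Mrpl45 held 2 NRF1 matches, and Mrps9 held 0 matches to the 3 motifs.

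The members with the largest differences at day 5 belong to both subunits. Mrps35, a small subunit protein with no bacterial counterpart, had log2 values of 8.31, 9.33, 9.86, 10.18 and 9.99 on days 0, 1, 2, 3 and 5. It stood higher on each array up to day 3 and was 3.21-fold higher at day 5 than at day 0 (log2 difference 1.68). Mrpl52, which lies near the central protuberance of the large subunit, had 9.35, 10.41, 10.92, 10.81 and 10.96. Nearly all of its difference was present by day 2, and it was 3.04-fold higher at day 5 (1.60). In RefSeq the gene beside Mrpl52 is Mmp14, which encodes a membrane-bound matrix metalloproteinase, and its values were 7.52, 8.79, 10.93, 11.55 and 11.28. Mmp14 was 13.6-fold higher at day 5, and Slc7a7, the amino acid transporter gene on the other side of Mrpl52, had a log2 difference of -1.12. The genes beside Mrps35, Rep15 and Mansc4, were at -0.38 and -0.09 at day 5, the latter from a row below the filter.

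A further 6 members made up the 8 largest at day 5. Mrps9, the counterpart of bacterial S9, had 8.86, 9.16, 9.30, 9.75 and 9.84, with its lowest value at day 0 and its highest at day 5 (0.98). Of this, 0.30 was present at day 1 and 0.45 was added between days 2 and 3. Mrpl38, a protein of the central protuberance, had 8.82, 9.70, 9.72, 9.79 and 9.74 (0.92), so that its 4 later arrays lay close together. Mrpl9, the counterpart of bacterial L9, had 7.77, 8.21, 8.52, 8.50 and 8.68 (0.91), and Mrpl36, the counterpart of bacterial L36, had 8.95, 9.69, 9.72, 9.70 and 9.80 (0.85). Mrps18a, a relative of bacterial S18 that sits in the large subunit despite its name, had 8.62, 9.24, 9.23, 9.34 and 9.47 (0.85). Mrps34, a small subunit protein without a bacterial counterpart, had 8.23, 9.02, 9.22, 9.03 and 9.02 (0.79), with day 0 apart from the later days. A further row that names Mrps34 together with Nme3 was at 0.12 at day 1 and 0.27 at day 5, and its lowest value was at day 2.

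Another group of members was highest at day 1 or day 2 and lower again at day 5. Mrpl45, which anchors the ribosome to the inner mitochondrial membrane near the exit of the peptide tunnel, had 7.05, 8.15, 7.73, 7.71 and 7.55. It was 2.14-fold higher at day 1 than at day 0 (1.09), the largest value among the 71 members, and 0.42 lower again at day 2 than at day 1. Mrps22, a small subunit protein without a bacterial counterpart, had 8.27, 9.28, 9.41, 9.08 and 8.92, a 2.01-fold difference at day 1 (1.01) and 0.65 at day 5. Mrps5, the counterpart of bacterial S5, had 6.99, 7.80, 8.15, 7.80 and 7.65, highest at day 2.

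Mrps27, Mrps2 and Mrpl49 were higher at day 1 and lay just below day 0 at day 5. Mrps27, a pentatricopeptide repeat protein of the small subunit, had 7.77, 8.38, 8.56, 8.04 and 7.73. Its steps at day 3 against day 2 and at day 5 against day 3 were -0.52 and -0.30. Mrps2, the counterpart of bacterial S2, had 6.90, 7.47, 7.71, 7.19 and 6.86, with steps of -0.52 and -0.33, and so traced the same shape as Mrps27. Mrpl49, a large subunit protein without a bacterial counterpart, had 9.19, 9.79, 9.39, 8.98 and 9.13, with its highest value at day 1 and its lowest at day 3.

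**Figure D3:**
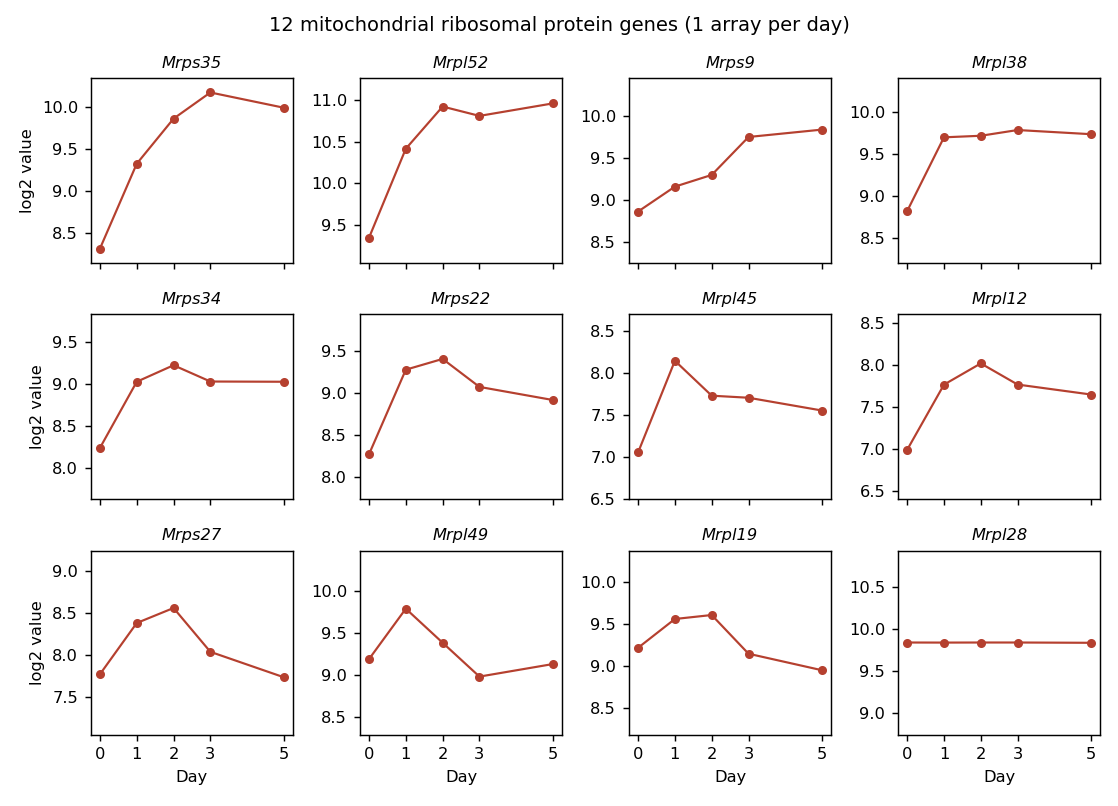
Log2 values of 12 members on each day of culture (1 array per day), with the same vertical span in each panel, centred on its gene. Mrps35, Mrpl52 and Mrps9 stay near their highest value at day 5, Mrps27, Mrpl49 and Mrpl19 are back near or below their day 0 value, and Mrpl28 is flat.

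At the low end of the day 5 differences, 12 members lay below day 0, by 0.27 or less. Mrpl19, the counterpart of bacterial L19, had 9.22, 9.56, 9.61, 9.15 and 8.95 (-0.27 at day 5). Mrps10 had 8.13, 8.40, 8.28, 8.12 and 7.96 (-0.17), and Mrpl39 had 10.16, 10.48, 10.21, 10.07 and 10.07 (-0.09). These 3 were higher at day 1 than at day 0, as were Mrps14 (-0.09), Mrpl40 (-0.07) and Mrpl49 (-0.06), which complete the 6 lowest. The sizes are within the noise of 1 row.

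A few members barely moved. Mrpl28 was at 9.84 on all 5 arrays and was the single member below day 0 at day 1, by a difference of -0.00099. Mrps24 had 8.55, 8.63, 8.53, 8.55 and 8.55, and Mrps18c had 7.84, 7.98, 7.76, 7.89 and 7.84. Mrps16, the counterpart of bacterial S16, showed the early step in small form, with 11.14, 11.41, 11.53, 11.50 and 11.41. Mrpl27, with 5.21, 5.42, 5.16, 4.65 and 5.16, lay near the level filter, where its single low value at day 3 gave steps of -0.51 and 0.51.

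The 3 relatives of bacterial S18 had unlike values at day 5, to be read beside the SD of 0.59 between 2 rows of 1 gene. Beside Mrps18a (0.85 at day 5) and Mrps18c (0.0067), Mrps18b had 9.74, 10.58, 10.49, 10.39 and 10.20, highest at day 1 (0.84) and at 0.46 at day 5. Its second, dimmer row was at 0.80 at day 1 but at -0.25 at day 5, so the 2 rows went apart late in the culture. In all, 9 members had 2 rows, and 6 of them had the same sign in both rows at day 1. Mrps17 (0.60 and 0.68) and Mrps16 (0.27 and 0.45) were higher in both. Mrpl47 was at 0.88 in the brighter and -0.0053 in the dimmer row, Mrpl12 at 0.78 and 0.09, and Mrps5 at 0.81 and 0, the last from a row below the filter.

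The ribosome's functional regions were described from lists of their proteins. The stalk recruits translation factors, and its 4 members had a median of 0.39 at day 1 and 0.24 at day 5. Mrpl12 was the highest of these, with 6.99, 7.77, 8.02, 7.77 and 7.65, while Mrpl10, which joins the stalk to the ribosome, had 8.05, 8.09, 8.23, 8.26 and 8.19. Mrpl11, the stalk base protein, had 7.81, 8.31, 8.38, 8.28 and 8.14. The 8 members of the central protuberance had medians of 0.46 and 0.33 on the same days, and the 6 at the exit of the peptide tunnel 0.36 and 0.18. Mrpl58, a peptidyl-tRNA hydrolase that has become part of the large subunit, had 8.88, 9.26, 9.25, 9.17 and 9.21. Mrps12, the counterpart of bacterial S12 at the decoding site, had 8.06, 8.64, 8.43, 8.29 and 8.29, with its highest value at day 1. Mrps28 was at 0.39 at day 1 and 0.27 at day 5.

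Both subunits had the same median at day 1, 0.47 for the 43 Mrpl and 0.47 for the 28 Mrps genes. At day 5 the medians were 0.37 and 0.27. At least 1.5-fold higher were 10 of 43 Mrpl and 7 of 28 Mrps genes, against 13.3% of all measured genes. Whether the subunits differ was not tested. The symbols do not give the subunit in every case: besides Mrps18a, Mrps30 sits in the large subunit, and it had 7.21, 7.82, 7.84, 7.82 and 7.82. Mrps36, now assigned to the alpha-ketoglutarate dehydrogenase complex and not to the ribosome, had 4.83, 5.05, 5.01, 4.75 and 5.03, near the filter.

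Divided by origin, 44 members have a bacterial counterpart and 25 are found in mitochondrial ribosomes only, with Mrpl55 and Mrps36 not assigned. The mitochondrial-only members had a median of 0.53 at day 1 and 0.38 at day 5, and those with a counterpart 0.45 and 0.27. All 4 members at 2-fold at day 1 and both at day 5 were mitochondrial-only (4 and 2 of 25), against 0 of 44. Of all measured genes 2.91% were 2-fold higher at day 1 and 6.78% at day 5. At day 2 the counts at 2-fold were 3 of 25 and 2 of 44, where 5.18% of all measured genes were higher by as much. At 1.5-fold the day 5 counts were 6 of 25 and 11 of 44, against 13.3% of all measured genes. Whether the 2 classes differ was not tested.

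Mrpl46 and Mrps11 lie head to head. Their RefSeq starts are 41 bases apart, and their promoter windows share 141 bases. The whole stretch between the starts, on the plus strand of GRCm38.p6 from RefSeq, holds 1 match to the SP1 letters, in capitals.
Mrpl46 to Mrps11 (chr7:78783090-78783130): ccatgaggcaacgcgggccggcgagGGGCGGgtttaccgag

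Mrpl46, a central protuberance protein of the large subunit, had 8.61, 9.15, 9.32, 9.10 and 9.09. Mrps11, the counterpart of bacterial S11, had 9.36, 9.72, 9.44, 9.44 and 9.34. Both were higher at day 1 (0.54 and 0.36), while at day 5 Mrpl46 was at 0.49 and Mrps11 at -0.02. The gap between the 2 genes at day 5 is under the SD of 0.59 between 2 rows of 1 gene.

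The cytosolic ribosome and the respiratory chain gave a scale for the mitoribosome. The 55 measured of 56 cytosolic ribosomal protein genes had medians of 0.28, 0.18, 0.04 and -0.01 on days 1, 2, 3 and 5 against day 0, where the members had 0.47, 0.48, 0.36 and 0.33. At day 1, 54 of the 55 were higher, against 49.1% of all measured genes. At day 5, 24 were higher, 30 lower and 1 equal, against 42.8% higher and 49.2% lower. The array of day 1 was the highest for 42 of these 55 (76.4%), against 24.3% of all measured genes. The 73 measured of 77 nuclear-encoded subunits of the respiratory chain and ATP synthase had 0.26, 0.42, 0.63 and 0.63 on the same days. Their highest array was day 3 for 40 (54.8%) and day 5 for 31 (42.5%), against 18.6% and 16.2% of all measured genes. At day 5, 12 of the 73 were at least 2-fold higher, against 6.78% of all measured genes.

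Transcripts of the mitochondrial DNA itself, the messages that the mitoribosome reads, were near their day 0 values at day 1. The 10 measured ones had a median of -0.01 at day 1, with 4 higher and 6 lower, against 49.1% and 43.2% of all measured genes. Their median was 0.51 at day 3 and 0.60 at day 5, with 10 of 10 higher, against 43.6% and 42.8%. ND3, a subunit of complex I, had 9.33, 9.61, 10.21, 11.15 and 10.88, and ND4L was at 1.27 at day 5. COX1 and ND1 had 0.18 and 0.27. The dimmest rows, ND2, ND3, ND4L and ND6, had the largest differences at day 5, 1.07 to 1.55. The brighter rows, with mean levels of 12.2 or more, were at 0.18 to 0.71. Whether signal level plays a part in the size of these differences was not tested. No test of a difference between these groups was possible with 1 array per day.

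**Figure D4:**
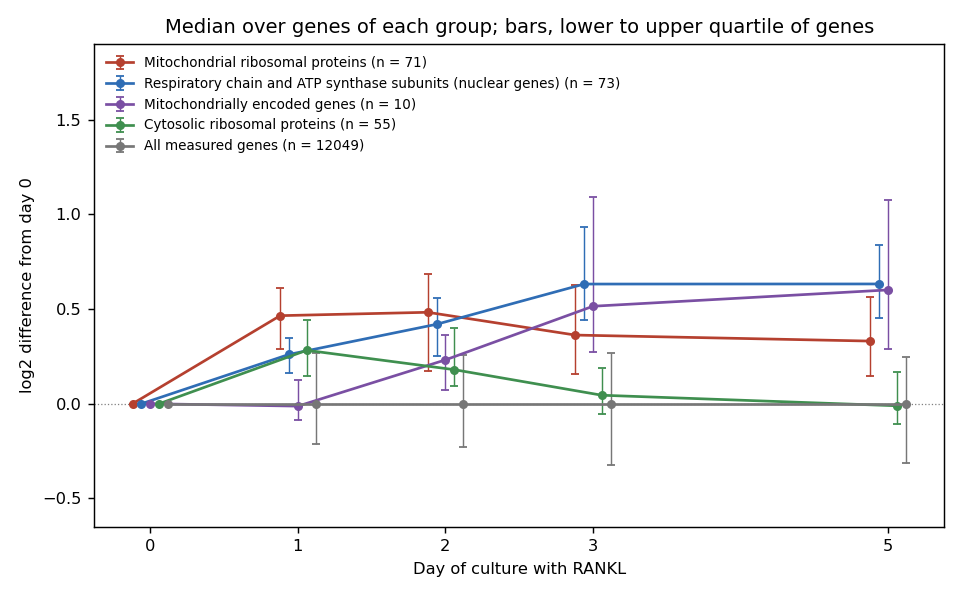
Median log2 difference from day 0 over the genes of each group on each day of culture, with bars from the lower to the upper quartile of genes (these are spreads over genes and not errors over samples). The 71 mitochondrial ribosomal protein genes are near 0.47 by day 1 and at 0.33 by day 5, the respiratory chain subunits reach 0.63 at day 3, the mitochondrially encoded genes lie at -0.01 at day 1 and 0.60 at day 5, and the cytosolic ribosomal proteins are at -0.01 at day 5.

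Genes that build, load and use the mitoribosome were followed as lists. Of 15 genes listed for mitochondrial translation, 14 were higher at day 1 (median 0.35), against 49.1% of all measured genes. At day 5, 13 were higher and 2 lower (median 0.62), against 42.8% and 49.2%. There 0 were at 2-fold and 8 at 1.5-fold, against 6.78% and 13.3%. Besides translation factors proper, the list holds Oxa1l (0.86), Letm1 (0.75) and Mtres1 (0.62), and the day 5 median is the value of Mtres1. The elongation and recycling factors Gfm1 (9.55, 9.92, 10.43, 10.66 and 10.49) and Gfm2 (7.99, 8.38, 8.62, 8.75 and 8.96) were at 0.95 and 0.97. The formyltransferase for the initiator tRNA, Mtfmt, and the release factor Mtrf1l were at -0.41 and -0.26. Of 21 genes that charge mitochondrial tRNAs, 21 were higher at day 1 (median 0.30, Yars2 at 1.08) and 15 at day 5 (median 0.21). The shares of all measured genes were 49.1% and 42.8%. Iars2 (0.72) and Fars2 (0.64) were the highest of these at day 5, and Aars2 (-0.40) and Gatc (-0.38) the lowest.

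Assembly factors and ribosomal RNA modifiers, 27 measured of 30, had medians of 0.22 at day 1, with 24 higher, and 0.10 at day 5, with 15 higher, 10 lower and 2 equal. Of all measured genes 49.1% were higher at day 1, and 42.8% were higher and 49.2% lower at day 5. Mettl15, a methyltransferase of the small subunit ribosomal RNA, was the single one at 2-fold, where 6.78% of all measured genes were. It had 6.77, 7.55, 7.88, 8.44 and 8.27 (1.49). The GTPase Noa1 followed at 0.71, and the dimethyltransferase Tfb1m (-0.38) and the RNA chaperone Eral1 (-0.33) were lowest. Of 18 measured genes of mitochondrial transcription, RNA processing and nucleoids, 17 were higher at day 1 (median 0.52) and 13 at day 5 (median 0.37), against 49.1% and 42.8%. Here Hsd17b10 (1.34) and Trmt10c (1.28), subunits of the mitochondrial RNase P, were at 2-fold, against 6.78% of all measured genes. Prorp, a further subunit of that enzyme, was at 0.35, and the polymerases Polg (-0.29) and Polrmt (-0.20) were lowest. Trmt10c had 6.37, 7.37, 7.75, 7.72 and 7.64, with the lowest value at day 0.

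The mitoribosome proteins known by other symbols were few on the arrays. Dap3, Ptcd3 and Gadd45gip1 were at 0.07, 0.38 and 0.51 at day 1, and at 0.08, 0.02 and 0.25 at day 5. All 14 markers of protein import and mitochondrial content were measured and had medians of 0.49 at day 1 and 0.66 at day 5, with the citrate synthase gene Cs at 1.14, Vdac1 at 0.86, Tomm40 at 0.22 and Timm50 at -0.43 at day 5. Of 8 measured genes of proteases and ribosome quality control, 5 were higher at day 1 (median 0.26) and 7 at day 5 (0.46). The shares of all measured genes were 49.1% and 42.8%. Clpx (1.04) and Oma1 (0.66) led at day 5, with Yme1l1 at -0.34.

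Among 11 measured regulators of mitochondrial biogenesis, 11 were higher at day 1 (median 0.37), against 49.1% of all measured genes. At day 5, 5 were higher and 6 lower (median -0.13), against 42.8% and 49.2%. Ppargc1b had 6.70, 8.29, 9.92, 10.26 and 9.97, lowest at day 0 and highest at day 3, and was 9.60-fold higher at day 5 (3.26). Myc, a growth-promoting transcription factor, had 9.11, 10.37, 9.94, 8.41 and 8.34, highest at day 1 (1.25) and at -0.78 at day 5. Nrf1 itself had 8.35, 8.80, 8.18, 7.87 and 7.94, also highest at day 1. The deacetylase gene Sirt3 was at 1.32 and the receptor gene Esrra at 0.84 at day 5, while Gabpb2 was at -0.41. No relation of these genes to the members was computed over 5 arrays.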

How the data were processed

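Trizol-extracted RNA was labelled as biotinylated cDNA by the Affymetrix WT Pico protocol, per the labels' protocols. The deposited log2 values were made by the authors with RMA from oligo in R 3.4.0, per the submitters' processing notes. The genome build and the level of probe summary are not stated in the labels or the table, so no coordinates are given for array rows, and those of the promoters are RefSeq's. Of 41345 rows, the platform annotation names 1 gene on 23521 and several on 1814, and 16010 are unnamed here. Entrez identifiers of 23328 rows matched RefSeq.

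Values were used as deposited. A gene was called at 2-fold or 1.5-fold, and the number of arrays limits precision. Members, lists and the naming rule (largest and smallest differences at day 5 and in each step, highest and lowest levels, and fixed proteins by role) were chosen with earlier results of these data known. Mrps22, Mrpl46, Mrpl47, Yars2, Nrf1, Esrra, Dcn and the neighbours of Mrpl52 and Mrps35 fall outside that rule and were chosen after their values were seen. The same holds for Oxa1l, Letm1, Mtres1, Prorp, ND2 and ND6. Counting was tested on simulated data. Alternatives covered scaling, rows per gene, level filters, fold and days. Python 3.11.15, numpy 2.4.6, pandas 2.3.3 and matplotlib 3.10.9 were used.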

Additional observations from a re-analysis of the deposited data

Results flagged for a closer look

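Array rows that name a mitochondrial ribosomal protein gene together with another gene were outside the comparisons, and 2 of these rows were at least 2-fold higher at day 5 than at day 0. The row naming Mrps6 and the inositol transporter gene Slc5a3 had log2 values of 7.15, 9.02, 9.01, 9.44 and 9.01 on days 0, 1, 2, 3 and 5 (1.86 at day 5), with day 0 apart from all later days. The row naming Mrpl41 and Dph7 had 7.97, 8.35, 8.63, 8.92 and 9.02 (1.05). Which gene of each pair the signal belongs to was not tested.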

How the results depend on the processing

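No paired analysis was possible because each day has 1 array and the labels carry no replicate numbers. Of 71 alternative values of the main counts and medians, 63 stayed within the limits used (0.1 for medians). Values without the level filter were the same by construction, since all members pass it. The limit of 0.1 is wider than the medians of the later steps between days, so it cannot show a change of sign there. Centring on the median of the 11 reference levels, which was that of Pgk1 on each array, moved all genes alike. The members' median was then 0.21 at day 1 against day 0, 0.42 at day 2 against day 1 and -0.24 at day 3 against day 2. With these genes taken relative to their own means, a setting added after the data were seen, the medians stayed within 0.1 of the values as deposited. With day 1 in place of day 0, the day 5 count at 2-fold was 0 and the median -0.11, or -0.085 for the large and -0.14 for the small subunit. The count at 1.5-fold was 17. Of 228 alternative values of the 38 named members, 20 moved by more than the noise of 1 row. A change of sign was counted only for members past 2-fold, which were Mrps35 and Mrpl52, and 0 were found. Of the 20, 19 came with day 1 in place of day 0, by construction without the first step (Mrpl45 at -0.59, Mrpl49 at -0.66), and 1 was Mrpl27 at -0.56 with day 3 in place of day 5. Signal near the level filter limits Mrpl27 and Mrps36.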

Other observations

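Further rows shared with another gene gave values for mitochondrial ribosomal protein genes that have no row of their own and are not among the 71 members. The row naming Mrpl44 and Wdfy1 had 7.57, 8.14, 8.48, 8.53 and 8.46, a log2 difference of 0.90 at day 5, and Mrpl44 encodes an RNase III-like protein near the tunnel exit. The row naming Mrpl43 and the helicase gene Twnk had 7.54, 8.06, 8.09, 8.26 and 8.27 (0.73). That naming Mrpl30 and Gm6238 was at 0.49, and the rows naming Mrpl53 and Ccdc142 were at 0.39 and 0.28. The rows naming Mrpl33 were at 0.38 with Babam2 and at 0 with Gm38424. The day 0 array held the lowest value in each of these rows except those of Mrpl33. Some members also had a shared row beside their own. A row naming Mrpl19 and Gcfc2 was at -0.93, beside -0.27 for the row of Mrpl19 alone. That naming Mrps34 and Nme3 was at 0.27, beside 0.79 for Mrps34 alone. That naming Mrpl47 and Actl6a was at -0.19, beside 0.62, and that naming Mrps27 and 6430562O15Rik at 0, beside -0.04.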
